A study of Mus musculus with 6 samples.

Results

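Complement is a set of plasma and tissue proteins that mark particles for uptake and can perforate membranes. It is triggered by the C1 complex (C1q with the proteases C1r and C1s), by lectins that bind sugars, or by the alternative pathway, and all routes meet in the cleavage of C3. The alternative pathway depends on factor D, which cuts factor B once factor B is bound to C3. Factor D is also called adipsin because fat cells secrete it in large amounts, whereas C1q is made mostly by macrophages and C1r, C1s, C3 and C4 are made by stromal cells as well as the liver. A list of 9 complement genes was followed in subcutaneous inguinal white fat (iWAT) that carries an *Hlx* transgene. They are *Cfd* (factor D), *C3*, *C4b*, *C2*, *Cfb* (factor B), *C1qa*, *C1qb*, *C1qc* and *C1s*. Each was taken from the row of the deposited gene table that carries its name, alone or between commas. All 9 were found, on 8 of 19445 rows, because *C2* and *Cfb* share a row.

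The groups were 3 *Hlx* transgenic mice (TG), which express the *Hlx* cDNA from the *aP2* (*Fabp4*) promoter active in fat cells, and 3 wild-type littermates (WT), all 12 weeks old. The transgene was made in C57BL/6 × SJL embryos and backcrossed to C57BL/6, and each mouse gave 1 RNA-Seq library. Whether the 3 TG mice descend from 1 founder line is not given in the sources used here. Levels are in FPKM, a count of fragments divided by the length of the transcript and by the reads mapped in the library, so that levels of different genes can be compared. *Hlx* was at 110, 79.6 and 99.5 FPKM in the TG mice and at 6.88, 7.35 and 8.14 FPKM in the WT mice, so each TG mouse lay above each WT mouse for the gene it was labelled for. The fat cell genes *Fabp4* and *Adipoq* were at 1279 FPKM or more in all 6 mice, and 5 of 6 brown fat cell markers were higher in TG, namely *Cidea*, *Cox7a1*, *Ucp1*, *Elovl3* and *Ppargc1a*.

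The labels call the animals male. However, *Xist*, the RNA by which females silence 1 X chromosome, stood at 20.2 to 33.6 FPKM in all 6 libraries, and the 28 rows of chromosome Y were listed at 0 in all of them. The libraries therefore go against their labelled sex, in both genotypes alike. FPKM totals per library lay between 466059 and 542096. Absolute depth is unknown, since FPKM holds no counts. Relative depth, read from the spacing of the lowest values, ran from 0.692 (TG replicate 3) to 1.41 (WT replicate 2), with WT replicate 3 set to 1. It is approximate. Of the rows above 0 and under 0.3 FPKM in both libraries compared, 12.46% to 15.28% lay on the step that gave it. TG replicate 2 held the most skeletal muscle RNA. *Acta1*, muscle actin, was at 187 FPKM there and at 2.36 to 39.5 FPKM in the other mice. The muscle list has 8 markers, of which *Tnnt3* shares its row with *Lsp1*, a leukocyte gene. Without that row the sum was 84.0, 632 and 127 FPKM in TG and 7.35, 132 and 38.0 FPKM in WT, highest in replicate 2 of each genotype and overlapping between them. By limma 0 of the 8 were called (1 at an unadjusted p under 0.05, *Mylpf*), while 7 had log2 fold changes above 0 and the median was 2.17. *Acta1*, *Mylpf* and the joint *Tnnt3* row, the most abundant, stood at 2.36, 2.17 and -0.11. The part of muscle RNA in the complement values was not tested.

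Each row with a mean over 1 FPKM in at least 1 genotype went into a limma fit on log2(FPKM + 1), p-values were adjusted over the 11692 rows tested by the Benjamini-Hochberg method, and a row is called at an adjusted p under 0.05. Log2 fold changes are TG against WT on that scale, on which the change of low genes is understated. An exact two-sided permutation test of a single gene cannot fall below p = 0.1 in this design, so a p of 0.1 marks groups that do not overlap. P-values here measure the spread between mice. All 8 complement rows were tested. In TG iWAT 4 of them were lower (*Cfd*, *C4a,C4b*, *C2,Cfb* and *C1s*), 0 were higher (limma; 0 also at an unadjusted p under 0.05) and 4 were not called (*C3*, *C1qa*, *C1qb* and *C1qc*). Across the transcriptome 7.03% of tested rows were called lower and 11.6% higher. The groups did not overlap, with TG below WT, at the same 4 complement rows and at 20.1% of all tested rows, and TG lay above WT at 22.8%. The median log2 fold change was -0.62 over the 8 rows and -0.01 over all tested rows.

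**Figure D1:**
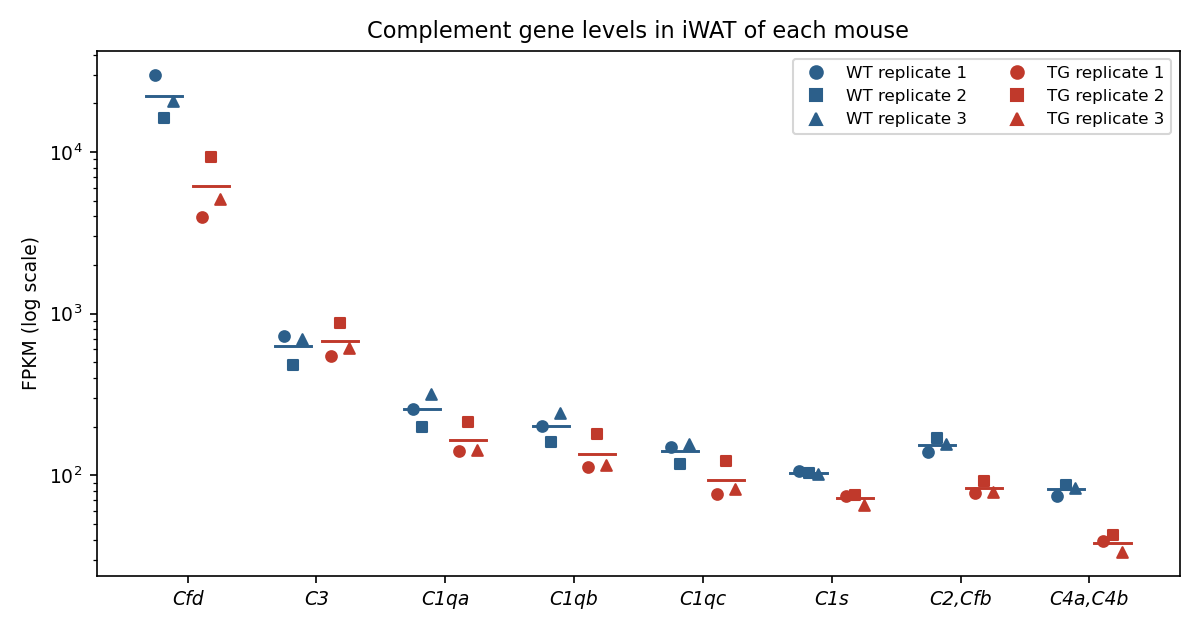
FPKM of the 8 complement rows in each mouse (log axis), WT in blue and TG in red, 1 symbol per replicate, with a line at the mean of 3 mice. All TG points lie below all WT points for *Cfd*, *C1s*, *C2,Cfb* and *C4a,C4b*, the genotypes overlap for *C3* and the 3 C1q genes, and TG replicate 2 is the highest TG mouse in all 8 rows.

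In order of level, *Cfd* stood far above the rest, with 22266 FPKM on average in WT, rank 1 of 19445 rows, and 6110 FPKM in TG, rank 3. *C3* came next at 634 and 679 FPKM, followed by *C1qa* at 258 and 166 FPKM and *C1qb* at 202 and 136 FPKM in WT and TG. The *C2,Cfb* row and *C1qc* were close, at 154 and 141 FPKM in WT and at 83.0 and 94.0 FPKM in TG, and their ranges overlapped in both genotypes. *C1s* was at 104 and 71.8 FPKM and *C4a,C4b* was lowest at 81.6 and 38.4 FPKM. The ranges of *C1qa* and *C1qb* overlapped too, as did those of *C1qb* with the next row in order, *C2,Cfb* in WT and *C1qc* in TG; all other neighbours in the order were separate. Spread between mice of 1 genotype differed widely. The coefficient of variation of *Cfd* was 46.0% in TG and 31.8% in WT, against a median of 10.6% and 9.70% over all tested rows, and that of *C1s* was 7.87% and 2.36%.

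The stretch of DNA upstream of *Cfd* is shown with those of *C3* and *C1qb*, since these are the most abundant gene of the list, the next in level that was not called, and a chain of C1q. Each is the 250 bases before the RefSeq start (GRCm38.p6, the same build as mm10), 5′ to 3′ on the strand of the gene. They lie at chr10:79890603-79890852 (plus strand), chr17:57228137-57228386 (minus strand) and chr4:136886201-136886450 (minus strand). Capitals mark matches to TTGCNNAA, a form of the C/EBP motif, or to GAGGAA, a PU.1 core, each searched on both strands.
*Cfd*: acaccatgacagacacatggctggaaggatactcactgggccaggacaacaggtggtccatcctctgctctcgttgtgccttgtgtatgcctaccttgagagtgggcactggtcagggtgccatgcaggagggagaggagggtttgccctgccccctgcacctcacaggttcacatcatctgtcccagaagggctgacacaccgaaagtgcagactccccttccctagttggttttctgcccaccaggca
*C3*: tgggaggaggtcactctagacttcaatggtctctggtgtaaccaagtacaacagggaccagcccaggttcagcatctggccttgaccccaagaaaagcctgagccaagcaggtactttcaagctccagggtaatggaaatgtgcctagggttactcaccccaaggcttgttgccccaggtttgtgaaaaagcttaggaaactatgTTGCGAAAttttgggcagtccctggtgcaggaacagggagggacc
*C1qb*: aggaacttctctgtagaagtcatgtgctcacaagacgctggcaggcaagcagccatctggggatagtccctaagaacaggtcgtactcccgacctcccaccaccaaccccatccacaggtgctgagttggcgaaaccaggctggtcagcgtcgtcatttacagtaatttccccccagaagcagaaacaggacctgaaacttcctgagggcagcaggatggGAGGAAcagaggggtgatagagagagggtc

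*C3* holds a C/EBP match that begins 45 bases before the start, and *C1qb* a PU.1 match that begins 30 bases before it. The *Cfd* window holds neither set of letters. Of 32851 promoter windows of this length, 9.56% hold the first motif and 23.3% the other, so a match is a description and not a site. A TATAAA on the gene strand (7.59% of windows), a CCAAT on either strand (33.8%) and a GAS-type TTCNNNGAA on either strand (7.02%) were in none of these 3 windows. Sequences from the same table matched 5 of the 9 genes by symbol, and those of *C1qa*, *C2*, *Cfb* and *C4b* were not matched. Of the 2 windows of *C1s* (listed as *C1s1*), 1 holds a C/EBP match that begins 242 bases before the start. The window of *C1qc* holds a PU.1 match that begins 193 bases before it.

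*Cfd*, on chromosome 10 from 79890853 to 79892655, encodes the serine protease that cuts factor B in the alternative pathway. It was at 30042, 16189 and 20568 FPKM in the WT mice and at 3955, 9289 and 5088 FPKM in the TG mice. Each TG mouse was below each WT mouse, and TG replicate 2, the highest, reached 9289 FPKM against 16189 FPKM in the lowest WT mouse. The mean was 3.64-fold lower in TG (log2 fold change -1.91, standard error 0.40, limma adjusted p = 0.0200; exact permutation p = 0.1). *Cfd* made up 5.79%, 3.42% and 4.41% of all FPKM in the WT libraries and 0.730%, 1.81% and 1.01% in the TG libraries. The change was the largest of the list, but its call was the only one of the 4 that was lost in other settings. The limma call was lost in 7 of 14 other settings. Without TG replicate 1, TG replicate 3, WT replicate 1 or WT replicate 3 in turn the adjusted p was 0.0620, 0.0722, 0.0527 and 0.0624. It was 0.0630 after quantile normalization and 0.276 without the expression filter, while the log2 fold change stayed between -2.26 and -1.60 in these settings and without TG replicate 2.

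The table draws *Cfd* in an interval of 672334 bases that 40 other rows share. Of the 32 of these that were tested, 6 were higher and 3 lower in TG, with a median log2 fold change of 0.13, and none exceeded 1227 FPKM. Among the neighbours of *Cfd* are *Elane* and *Prtn3*, genes of neutrophil granule proteases that end 2637 and 7678 bases before it on the same strand. The rows of the interval were not ranked by distance. *Prtn3* was lower in TG, at 3.44, 4.07 and 2.73 FPKM against 18, 7.31 and 12.9 FPKM in WT (log2 fold change -1.57, limma adjusted p = 0.0122). For every 1000 FPKM of *Cfd* there were 0.438 to 0.871 FPKM of *Prtn3* in TG and 0.451 to 0.626 FPKM in WT. For *Elane* this was 0.134 to 0.180 FPKM in TG and 0.0713 to 0.143 FPKM in WT. *Kiss1r* and *Arid3a* begin 24315 and 34387 bases after *Cfd*. Their levels per 1000 FPKM of *Cfd* were higher in TG without overlap. *Kiss1r* was at 0.0698 to 0.243 FPKM against 0.0154 to 0.0455 FPKM in WT, and *Arid3a* at 0.160 to 0.373 FPKM against 0.0429 to 0.101 FPKM. The list of 7 neutrophil markers, of which 5 were tested, had 1 call, *Camp*, which was higher in TG (log2 fold change 1.11, limma adjusted p = 0.0377). That call was lost in 7 of 14 other settings, among them those without any 1 TG replicate or WT replicate 2 (adjusted p up to 0.0988). *Camp* averaged 2.87 FPKM in TG and 0.895 FPKM in WT, so it passed the filter through the TG mice alone. The other 4 were not called. The calprotectin genes *S100a8* and *S100a9* and the granule gene *Ngp* had log2 fold changes of 1.06, 1.07 and 0.88. *Elane* was at 0.590, 1.25 and 0.913 FPKM in TG and 3.07, 1.15 and 2.95 FPKM in WT (log2 fold change -0.78, limma adjusted p = 0.0845). Whether reads of *Cfd* enter the rows of its neighbours was not tested.

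As a product of fat cells, *Cfd* was set beside fat cell markers. Of 10 such genes, 2 were lower in TG, *Retn* (resistin; log2 fold change -2.02, limma adjusted p = 0.00346) and *Adipoq* (adiponectin; -0.85, adjusted p = 0.0172), and 8 were not called. *Fabp4*, a fatty acid carrier and the most abundant of them, had a log2 fold change of 0.28 (limma adjusted p = 0.531). The call of *Adipoq* was lost without TG replicate 3 or WT replicate 2 (adjusted p up to 0.0814 over all settings). *Fabp4* alone made up 77.8% to 79.9% of the summed level of the 10 markers in TG and 66.6% to 69.5% in WT. Without it the sum was 7375, 7388 and 6383 FPKM in TG and 11801, 10077 and 8579 FPKM in WT, lower in TG without overlap. The 2 called genes weigh on that sum. *Retn* averaged 747 FPKM in TG and 2987 FPKM in WT, and *Adipoq* 1363 and 2481 FPKM. *Fabp4* itself was above WT in every TG mouse, at 24561 to 29363 FPKM against 19297 to 23539 FPKM. With it the sum overlapped, at 30944 to 36738 FPKM in TG and 27877 to 35340 FPKM in WT. Per FPKM of *Adipoq* there were 2.92, 6.38 and 3.98 FPKM of *Cfd* in the TG mice and 10.3, 6.62 and 9.87 FPKM in the WT mice. These ratios did not overlap, although the highest TG and the lowest WT mouse were close (exact permutation p = 0.1).

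*C3*, on chromosome 17 from 57203970 to 57228136, is the central protein on which all routes converge. It was at 729, 482 and 691 FPKM in the WT mice and at 548, 876 and 612 FPKM in the TG mice. The highest and the lowest value belonged to TG replicate 2 and WT replicate 2, and the genotypes overlapped. The log2 fold change was 0.09 with a 95% confidence interval from -0.45 to 0.64 (limma adjusted p = 0.799). Its sign turned without TG replicate 2 (-0.11), without WT replicate 2 (-0.09) and after quantile normalization (-0.21). On the same libraries there were 41.2, 33.6 and 29.8 FPKM of *Cfd* per FPKM of *C3* in the WT mice and 7.21, 10.6 and 8.31 FPKM in the TG mice. The ratio was on average 4-fold lower in TG, without overlap (exact permutation p = 0.1).

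**Figure D2:**
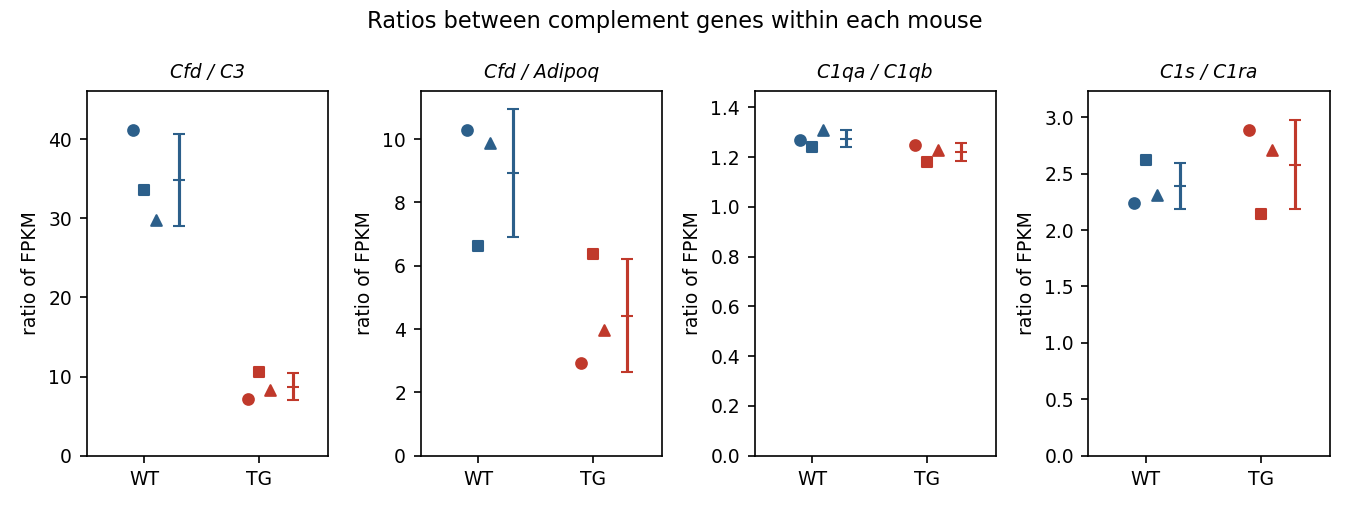
Ratios of FPKM between 2 genes within each mouse (axes start at 0; symbols as for the levels, bars give the mean ± SD of 3 mice). *Cfd* per *C3* is 29.8 to 41.2 in WT and 7.21 to 10.6 in TG, *Cfd* per *Adipoq* is lower in TG with close extremes, and the ratios *C1qa* to *C1qb* and *C1s* to *C1ra* overlap.

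Further convertase genes lie in the major histocompatibility region of chromosome 17. *C2* (34862604 to 34898265) and *Cfb* (34856374 to 34862518) supply the protease subunits of the classical and the alternative C3 convertase. They are 85 bases apart on the same strand, and the table gives a single value for both, so a change of 1 gene cannot be told apart from a change of both. The joint row was at 140, 169 and 155 FPKM in WT and at 77.5, 92.4 and 79.2 FPKM in TG. No TG mouse came near the WT range, and the mean was 1.86-fold lower (log2 fold change -0.89, standard error 0.11, limma adjusted p = 0.00305). *Rdbp*, in the same table interval, was at 30.2 to 34.3 FPKM in TG and 27.9 to 32.5 FPKM in WT and was not called (limma adjusted p = 0.466).

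*C4b*, on chromosome 17 from 34728380 to 34743882, encodes C4, whose larger fragment anchors the classical convertase. The table joins it with its near-identical copy *C4a*, and the row stands for the pair. It was at 74.3, 86.8 and 83.8 FPKM in WT and at 39.0, 42.4 and 33.6 FPKM in TG. The highest TG mouse was at 42.4 FPKM and the lowest WT mouse at 74.3 FPKM, and the mean was 2.13-fold lower (log2 fold change -1.07, standard error 0.11, limma adjusted p = 0.00165). The calls of *C4a,C4b* and *C2,Cfb* held in all 14 other settings. The ratio of *C2,Cfb* to *C4a,C4b* was 1.98, 2.18 and 2.36 in TG and 1.88, 1.95 and 1.85 in WT, which did not overlap but differed by little.

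Properdin (*Cfp*), which stabilises the alternative convertase, shares its row with *Elk1* and *Uxt*. That row was lower in TG, at 36.9, 48.4 and 40.7 FPKM against 72.5, 70.6 and 79.1 FPKM (log2 fold change -0.81, limma adjusted p = 0.00459). A change of *Cfp* cannot be told apart in it from a change of *Elk1* or *Uxt*. Of the 5 rows that hold the 7 convertase genes of a wider list, 4 were thus lower and *C3* was not called. Of these 4, only *Cfp,Elk1,Uxt* had not been counted above. Across all tested rows 7.03% were called lower.

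The C1q molecule is built of A, B and C chains, encoded by *C1qa*, *C1qb* and *C1qc* within 18675 bases of chromosome 4. *C1qa* was at 258, 198 and 318 FPKM in WT and at 142, 212 and 143 FPKM in TG. *C1qb* was at 203, 160 and 243 FPKM in WT and at 113, 179 and 116 FPKM in TG. *C1qc* was at 149, 118 and 155 FPKM in WT and at 76.7, 123 and 82.4 FPKM in TG. For each chain TG replicates 1 and 3 lay below all WT mice, and TG replicate 2 lay just above WT replicate 2. For the A, B and C chain the log2 fold change was -0.64, -0.58 and -0.60, none of them called (limma adjusted p = 0.0863, 0.109 and 0.0753). Their 95% confidence intervals reached from -1.16 to -0.11, from -1.10 to -0.06 and from -1.06 to -0.13. Without TG replicate 2 all 3 chains were called lower by limma, at -0.83, -0.79 and -0.80 on the log2 scale (adjusted p = 0.0409, 0.0354 and 0.0173), and the calls on the complement rows rose from 4 to 7. After quantile normalization *C1qa*, *C1qb* and *C1qc* were also called, with adjusted p of 0.0359, 0.0421 and 0.0389.

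The ratios between the 3 chains overlapped between the genotypes. *C1qa* was at 1.25, 1.18 and 1.23 times the level of *C1qb* in TG and at 1.27, 1.24 and 1.31 times in WT, with an exact permutation p of 0.2. *C1qb* was at 1.4 to 1.48 times the level of *C1qc* in TG and at 1.35 to 1.57 times in WT. *C1qa* was at 1.72 to 1.85 times the level of *C1qc* in TG and at 1.68 to 2.06 times in WT. WT replicate 3 had the highest value of each of these ratios.

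Macrophage markers moved in the same direction as C1q. Of 10 such genes, 7 were lower in TG, 0 were higher and 3 were not called, with a median log2 fold change of -0.62, and the groups did not overlap at 8. *Lyz2* (lysozyme) was at 262, 384 and 277 FPKM in TG and at 613, 593 and 755 FPKM in WT (log2 fold change -1.10, limma adjusted p = 0.00823). *Cd68* and *Csf1r* (the receptor for colony-stimulating factor) had log2 fold changes of -0.86 and -0.75, and the calls of *Mertk*, *Mpeg1*, *Cd163* and *Adgre1* lay between -0.84 and -0.41. *Mrc1*, *Cd14* and *Fcgr1* had log2 fold changes of -0.46, -0.49 and -0.10 and were not called. The calls of *Lyz2* and *Cd68* held in all 14 other settings. The other 5 were called in 7 (*Mpeg1*, on a row shared with *Pfpl*) to 10 (*Csf1r*) of 14, and each was lost both without TG replicate 1 and without WT replicate 3, and at least 1 of them without each of the other mice, with adjusted p of up to 0.117. The summed markers ran from 377 to 537 FPKM in TG and from 786 to 999 FPKM in WT. In bulk tissue fewer cells of a type and less RNA per cell cannot be told apart, and the part of macrophage number in the C1q values was not tested.

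The sum of the C1q chains per FPKM of the marker sum was 0.881, 0.957 and 0.831 in TG and 0.734, 0.604 and 0.716 in WT, without overlap. *Lyz2* made up 67.3% to 75.5% of the marker sum. Without it the ratio was 2.89, 3.36 and 2.54 in TG and 2.79, 2.46 and 2.93 in WT, and the genotypes overlapped. Per FPKM of *Cd68* alone there were 8.69, 10.7 and 8.53 FPKM of C1q in TG and 8.07, 6.76 and 8.42 FPKM in WT, close but without overlap.

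**Figure D3:**
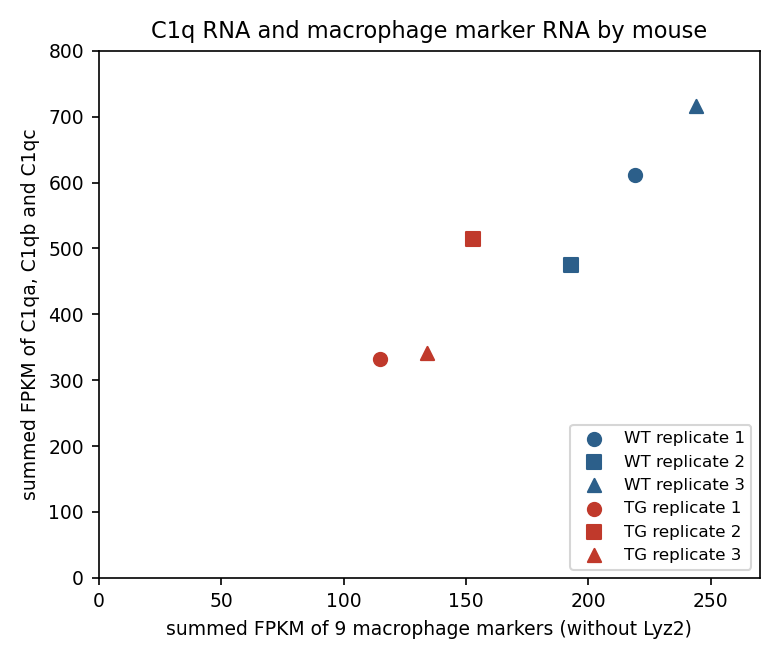
Summed FPKM of the 3 C1q genes against the summed FPKM of 9 macrophage markers (all but *Lyz2*) in each mouse, WT in blue and TG in red. TG mice span 115 to 153 FPKM on the marker axis and WT mice 193 to 244 FPKM, while in C1q TG replicate 2 (514 FPKM) lies above WT replicate 2 (475 FPKM).

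The C1 proteases cut the next components once C1q has bound. *C1s*, which the table places at the position of *C1s1* on chromosome 6 (124530345 to 124542359), cleaves C4 and C2. It was at 106, 103 and 102 FPKM in WT and at 74.1, 75.9 and 65.4 FPKM in TG. The genotypes were apart, with a narrow spread in WT, and the mean was 1.44-fold lower (log2 fold change -0.52, standard error 0.09, limma adjusted p = 0.00869), a call that held in all 14 other settings. *C1ra*, its partner that activates it, was lower too, at 47.5, 39.2 and 44.1 FPKM in WT and 25.6, 35.5 and 24.2 FPKM in TG. Its log2 fold change was -0.62 (limma adjusted p = 0.0348), and the call was lost in 7 of 14 other settings, among them those without TG replicate 1, TG replicate 3 or any 1 WT replicate, with an adjusted p of 0.0568 to 0.103 in these. The copy *C1rb* was under 0.1 FPKM in all mice. The ratio of *C1s* to *C1ra* ran from 2.14 to 2.89 in TG and from 2.24 to 2.62 in WT. *C1rl*, which encodes a C1r-like protease, went the other way, from 7.59 to 8.13 FPKM in WT to 10.3 to 14.7 FPKM in TG. Its log2 fold change was 0.49 (limma adjusted p = 0.0484), and this call was also lost in 7 of 14 other settings, with an adjusted p of 0.0693 to 0.124 without TG replicate 3 or any 1 WT replicate.

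Fibroblasts are a known source of *C1s*, *C1ra*, *C3* and *C4b*. Of 10 fibroblast markers, 1 was lower in TG, *Dpt* (dermatopontin), with a log2 fold change of -1.37 (limma adjusted p = 0.00275), and 9 were not called. The most abundant others, *Dcn* and *Col3a1*, had log2 fold changes of -0.37 and -0.18. The summed list ran from 1561 to 2188 FPKM in TG and from 2261 to 2821 FPKM in WT. Per 100 FPKM of this sum there were 3.44 to 4.75 FPKM of *C1s* in TG and 3.77 to 4.54 FPKM in WT. This ratio was not formed for *C4a,C4b*, and that of *C1s* does not stand for it. The part of fibroblast RNA in the *C1s* and *C4a,C4b* values was not tested.

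Mice of 1 genotype ranked alike in many of the rows. TG replicate 2 was the highest TG mouse in all 8 rows, whereas it was the highest in 31.2% of all tested rows. WT replicate 2 was the lowest WT mouse in 5 of the 8 rows (*Cfd*, *C3* and the C1q genes) and the highest in *C2,Cfb* and *C4a,C4b*. It was the lowest in 32.9% of all tested rows.

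The other genes of the pathway were read from a wider list of 52 symbols, of which 51 were in the table on 48 rows and 31 rows were tested. In all, 9 rows were lower and 3 higher in TG, with a median log2 fold change of -0.57. Without the rows of the 9 genes above, 5 of 23 were lower, 3 were higher and 15 were not called. Over all tested rows 7.03% were lower and 11.6% higher. Of 8 lectin pathway initiators, *Fcna* (ficolin A) and *Colec11* passed the filter. *Fcna* was lower, at 15.6, 17.9 and 13.7 FPKM in TG and 25.5, 23.1 and 30.9 FPKM in WT (log2 fold change -0.71, limma adjusted p = 0.0137). *Colec11*, a collectin, was at 0.624 to 0.972 FPKM in TG and 1.19 to 1.29 FPKM in WT and was not called (log2 fold change -0.29).

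**Figure D4:**
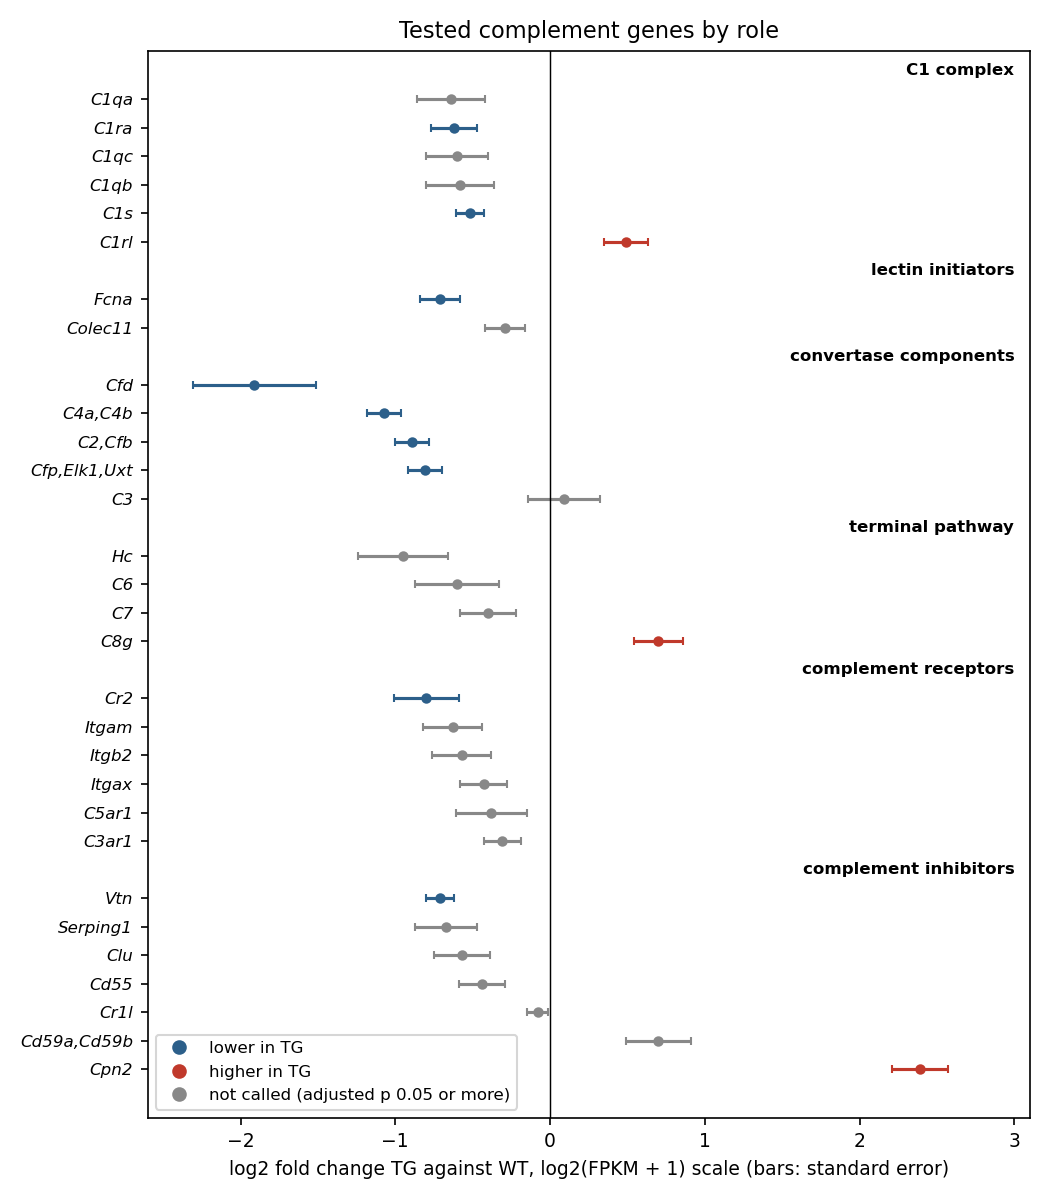
Log2 fold change of 30 tested complement rows, TG against WT, with the standard error as bars, grouped by role; blue marks rows called lower, red rows called higher and grey rows not called. Of these rows, 25 lie below 0 and 5 above, from -1.91 for *Cfd* to 2.39 for *Cpn2*.

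The terminal proteins, which form the membrane pore, were sparse. *Hc* (C5), *C6* and *C7* were at 0.361 to 5.13 FPKM and were not called, with log2 fold changes of -0.95, -0.60 and -0.40. *C8g* was higher in TG, at 4.55, 3.52 and 3.91 FPKM against 2.59, 2.2 and 1.49 FPKM (log2 fold change 0.70, limma adjusted p = 0.0245). It overlaps *Fbxw5* on the opposite strand, a gene at 35.0 to 42.0 FPKM in TG and 28.8 to 31.8 FPKM in WT. *Fbxw5* was itself called higher in TG (log2 fold change 0.33, limma adjusted p = 0.0459). Whether its reads enter the *C8g* row was not tested. The call of *C8g* was lost without TG replicate 1, TG replicate 3, WT replicate 2 or WT replicate 3 (limma adjusted p = 0.0543 to 0.0717).

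Of 6 receptor genes tested, 1 was lower, *Cr2*, a receptor for C3 fragments on B cells. It was at 5.80, 5.18 and 5.59 FPKM in TG and 8.28, 8.71 and 15.1 FPKM in WT (log2 fold change -0.80, limma adjusted p = 0.0386), and the call was lost in 6 of 14 other settings, among them those without any 1 TG replicate or WT replicate 2 (0.0552 to 0.0974). Of 10 lymphocyte markers, the B cell gene *Ms4a1* was lower (log2 fold change -0.76, limma adjusted p = 0.0361) and 9 were not called, with sums of 490 to 664 FPKM in TG and 636 to 929 FPKM in WT. The *Ms4a1* call was lost without TG replicate 1, TG replicate 3 or WT replicate 2. The joint row of *Arhgef1* and *Cd79a*, and *Ltb* and *Ptprcap*, the rows of highest level in that list, had log2 fold changes of -0.40, -0.44 and -0.32. The integrin chains of complement receptors, *Itgb2*, *Itgam* and *Itgax*, had log2 fold changes of -0.57, -0.63 and -0.43 and were not called, although TG was below WT without overlap. TG lay below WT without overlap at 20.1% of all tested rows. The anaphylatoxin receptors *C5ar1* and *C3ar1* had log2 fold changes of -0.38 and -0.31 and were not called either.

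Among inhibitors, 1 of 8 rows was lower, 1 was higher and 6 were not called. *Vtn* (vitronectin, which blocks the pore) was at 14.1, 13.2 and 11.6 FPKM in TG and 20.7, 21.5 and 23.2 FPKM in WT (log2 fold change -0.71, limma adjusted p = 0.00371). The abundant *Serping1* (C1 inhibitor) was at 164, 234 and 148 FPKM in TG and 321, 231 and 309 FPKM in WT and was not called (log2 fold change -0.67, limma adjusted p = 0.0627). *Clu* (clusterin) and the joint row of *Cd59a* and *Cd59b*, which guard cells against the pore, stood at -0.57 and 0.70 on the log2 scale and were not called (limma adjusted p = 0.0632 and 0.0607). For *Clu* TG was below WT without overlap. The joint *Cd59a* and *Cd59b* row was above WT in every TG mouse, at 85.5 to 135 FPKM against 52.9 to 80.5 FPKM. *Cd55* and *Cr1l*, which restrain C3 convertases, had log2 fold changes of -0.44 and -0.08 and were not called.

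Of the 31 complement rows the largest rise was that of *Cpn2*, another inhibitor gene, the non-catalytic subunit of carboxypeptidase N, an enzyme that trims anaphylatoxins. It went from 0.205, 0.0444 and 0.0413 FPKM in WT to 6.34, 3.62 and 4.56 FPKM in TG (log2 fold change 2.39, standard error 0.18, limma adjusted p = 0.000669), and the call held in all 14 other settings. *Cpn2* averaged 0.0969 FPKM in WT and 4.84 FPKM in TG, so it passed the filter through the TG mice alone. The catalytic subunit *Cpn1* was at 0 FPKM in the TG mice and at most 0.0333 FPKM in WT. *Cpn2* shares its table interval with 2 rows of *Lrrc15*. One of them was also higher in TG (0.0752 to 0.172 FPKM in WT, 1.32 to 2.71 FPKM in TG; log2 fold change 1.32, limma adjusted p = 0.00548) and the other was not called. The called *Lrrc15* row also passed the filter through the TG mice alone.

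Of the remaining cell types that the tissue could hold, the endothelial list of 6 markers was split, with 2 called higher, 4 not called and 3 of the 6 below 0. *Emcn* and *Kdr* had log2 fold changes of 0.50 and 0.35 (limma adjusted p = 0.0222 and 0.0329). Both calls were lost when single mice were left out, that of *Emcn* without TG replicate 3, WT replicate 2 or WT replicate 3 and that of *Kdr* without any 1 TG replicate, WT replicate 1 or WT replicate 2. The most abundant, *Pecam1* and *Cdh5*, stood at -0.09 and 0.29 on the log2 scale, *Tek* at -0.11, and *Vwf* at -0.47 with TG below WT in all mice (limma adjusted p = 0.0696). The summed list ran from 141 to 150 FPKM in TG and from 127 to 137 FPKM in WT. Of 8 epithelial markers 0 were called (limma; 2 at an unadjusted p under 0.05), with sums of 129 to 266 FPKM in TG and 219 to 300 FPKM in WT. All 8 had log2 fold changes below 0, and the most abundant, *Krt19*, *Krt18* and *Krt8*, stood at -0.43, -0.67 and -0.09. Liver is a main source of plasma complement. Of 6 hepatocyte markers 3 were tested. Albumin (*Alb*) was lower in TG, at 9.14, 5.82 and 9.52 FPKM against 25.5, 40.5 and 34.0 FPKM (log2 fold change -1.91, limma adjusted p = 0.00225). *Fgb*, a fibrinogen chain, was at 0.460 to 5.06 FPKM in TG and 3.67 to 12.3 FPKM in WT and was not called (log2 fold change -1.18). The joint row of *Serpina1a*, *Serpina1b* and *Serpina1d* was at 3.96 to 4.30 FPKM in TG and 2.93 to 3.84 FPKM in WT and was not called either (0.22). *Ttr*, *Ahsg* and *Apoa1* stayed under 1 FPKM in all mice and were not tested.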

How the data were processed

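RNA of iWAT from 3 TG and 3 WT mice was sequenced by the authors as 100-base single-end reads from an unstranded kit, so that genes overlapping on opposite strands cannot be separated. The submitters' processing notes name CASAVA 1.8.2, TopHat2 2.0.9, Bowtie2 2.1.0, Cufflinks 2.2.1 and mm10, with the annotation not given in the sources used here. The values deposited by the authors are FPKM per gene and mouse, and 0 value columns went unmapped. Where a symbol has several rows, the row of highest mean was used. Rows with a mean over 1 FPKM in a genotype (11692 of 19445) were tested on log2(FPKM + 1) with limma 3.58.1 in R 4.3.3, with a mean-variance trend, two-sided, with Benjamini-Hochberg adjustment. This replaced the authors' Cuffdiff test. The script was tested on simulated data. Exact permutation tests and ratios were computed in Python 3.11.15.

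Values of 1 gene are not reported here. The text names the 9 genes, other complement genes that were called, and the 3 most abundant and all called genes of a list it describes. The members and lists were chosen with earlier results of these data known. *Rdbp*, *Fbxw5*, *Lrrc15*, *Prtn3*, *Elane*, *Kiss1r* and *Arid3a* were added as neighbours, and uncalled macrophage, integrin, neutrophil, endothelial and hepatocyte genes were named after their values were seen. Alternatives were a pseudocount of 0.1, no filter, quantile and median-ratio scaling, no trend, sample weights, summed rows, a replicate block, and each mouse left out.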

Additional observations from a re-analysis of the deposited data

How the results depend on the processing

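Of the 4 complement rows called lower by limma, *C4a,C4b*, *C2,Cfb* and *C1s* were called in all 14 alternatives, and *Cfd* in 7. The number of complement rows called lower ranged from 3 to 7 when 1 mouse was left out, with 7 without TG replicate 2, and was 6 after quantile normalization, 3 without the filter and 3 with the replicate block. It was 0 for higher rows throughout. Of the wider pathway, 6 to 15 rows were lower and 1 to 3 higher when 1 mouse was left out (15 lower without TG replicate 2; 1 higher without TG replicate 3 or WT replicate 3). Across all rows 780 to 1295 were higher and 329 to 906 lower when 1 mouse was left out, against 1352 and 822. The log2 fold change of *C3* was -0.21 after quantile normalization and ran from -0.11 to 0.23 when 1 mouse was left out. The cause was not tested, beyond fewer mice being fitted.

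With the replicate number as a block 1230 rows were higher and 656 lower, of the complement pathway 2 and 6, and the adjusted p of *Cfd* was 0.0532. Mice of the same number deviated with correlations of 0.013, 0.034 and 0.070, none over 0.1. Mice of different numbers had correlations from -0.186 to 0.135. Whether same-numbered mice share a litter or a batch is not given in the sources used here. So few correlations cannot decide it. Absolute depth is unknown, and the precision of low FPKM could not be derived from it.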

Other observations

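Several complement genes lay under the expression filter and were not tested. *Masp1*, a protease of the lectin pathway, was at 0, 0.0950 and 0.157 FPKM in TG and at 1.04, 0.690 and 0.651 FPKM in WT. Its relative *Masp2* was at 0.920, 0.774 and 0.793 FPKM in TG and at 0.165, 0.739 and 0.556 FPKM in WT. *Mbl1*, *Mbl2*, *C8b* and *C4bp* were listed at 0 in all 6 mice.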
